A study of Mus musculus with 4 samples.

Results

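C2C12 myotube (MT) total RNA was set against polyA RNA from C2C12 cells transfected with a control siRNA (si-NC), gene by gene. C2C12 is a mouse myoblast line that exits the cell cycle and fuses into myotubes when it is moved to low-serum differentiation medium (DM). Entries of the MT total RNA table and of the si-NC table were paired where a gene symbol occurred once in each, and 23409 genes were paired. They came from 61630 entries of the MT table, of which 36780 were unnamed transcription units assembled from the reads, and from 24992 entries of the si-NC table. For each gene the change was the log2 ratio of FPKM + 1 (sequenced fragments, normalised for transcript length and for library depth), MT total over si-NC polyA. A gene was counted as higher or lower at a ratio of 1.5-fold or more on that scale.

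The MT cells had been in DM for 72 h, and their RNA was depleted of ribosomal RNA and made into a strand-specific library. The si-NC cells had been in DM for 48 h after transfection with the control siRNA, and their RNA was selected on poly(A). Each side was 1 library, with no replicate. The kind of RNA, the hours in DM, the transfection, the library kit, the sequencer and the gene annotation all differed between the libraries and cannot be told apart, so the values below are a description without a test. The other libraries of the series were total RNA of growing myoblasts (MB, labelled DM -24 h) and polyA RNA of cells in DM for 48 h after an siRNA against hnRNPL (si-hnRNPL). They formed a second pair, MB total over si-hnRNPL polyA, which shared no library with the first. Hnrnpl itself stood at 63.0 FPKM in MT total, 95.1 in si-NC, 111 in MB total and 85.9 in si-hnRNPL.

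Most messenger RNAs end in a poly(A) tail and are kept by poly(A) selection. Several RNA classes have none. The messages of the replication-dependent histones end in a conserved stem-loop, and small nucleolar RNAs, spliceosomal RNAs and the RNAs of RNase P and RNase MRP are trimmed to a structured end. Ribosomal depletion keeps both kinds. It also keeps RNA that is being transcribed or spliced, whose poly(A) tail has not yet been added.

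The cells of both libraries carried the markers of differentiating muscle, although the labels name the cell type of all 4 samples as myoblasts. Myog, the regulator that starts terminal differentiation, stood at 251 FPKM in MT total and 175 in si-NC, against 0.695 in MB total. The embryonic myosin gene Myh3 stood at 121 and 163 FPKM, against 0.101 in MB total. The creatine kinase gene Ckm stood at 66.3 and 45.0 FPKM. The intermediate filament gene Des, at 195 and 412 FPKM, was lower in MT total. The acetylcholine receptor subunit gene Chrna1 was almost level, at 144 and 140 FPKM. Of 20 markers of other cell types, 2 reached 1 FPKM in either library, and the neuronal tubulin gene Tubb3 (11.4 and 50.7 FPKM) was the 1 member past 1.5-fold.

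In all, 1220 genes (5.21%) were higher in MT total and 2996 (12.8%) were lower. Over the 10510 genes with at least 1 FPKM in both libraries, the median log2 ratio was -0.23, with quartiles of -0.61 and 0.10. The counts depended on the scaling. After this median was subtracted, 2121 genes were higher and 1853 lower, and after the protein-coding genes were scaled to 1 common sum, 3654 were higher and 1101 lower. Ratios are therefore given as deposited, and list medians are given beside the -0.23 of expressed genes. List counts under either scaling are to be read beside the counts of all 23409 genes under that scaling. In the second pair 2581 genes (11%) were higher in total RNA and 2866 (12.2%) lower. Both total libraries lay at least 1.5-fold above both polyA libraries for 460 genes (1.97%) and at least 1.5-fold below them for 1154 (4.93%). Of the 1220 genes higher in the first pair, 546 were higher, 188 lower and 486 neither in the second. Of the 2996 lower genes, 1339 were also lower there and 426 were higher. Across the 10510 expressed genes the log2 ratios of the pairs had a Pearson r of 0.31, a value across genes that share a library type, which is no replicate measure.

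**Figure D1:**
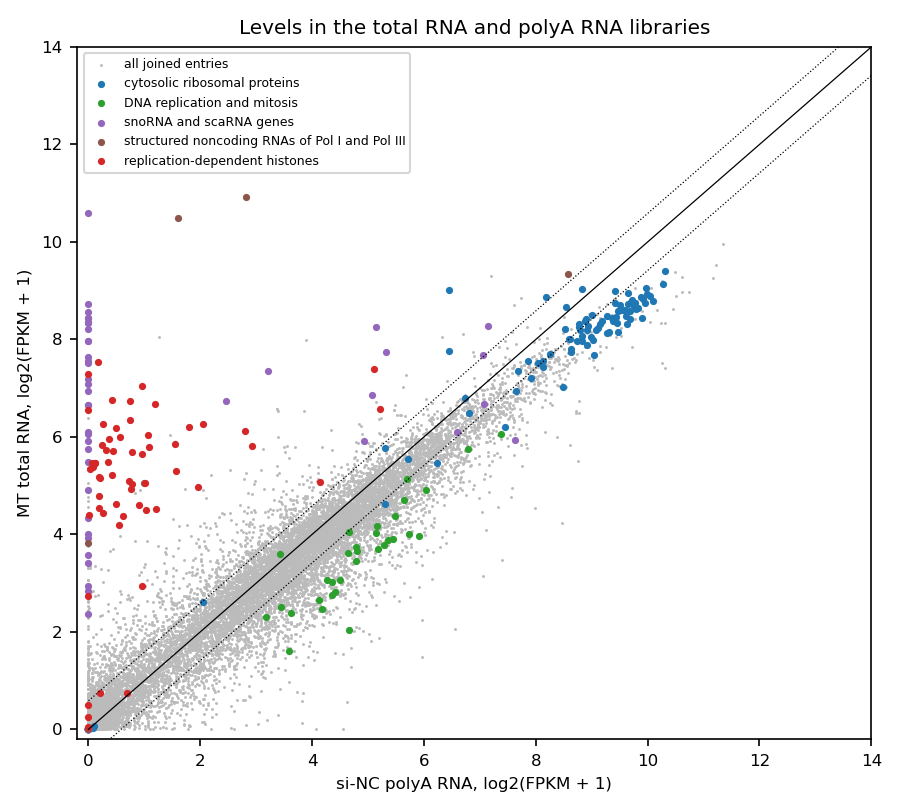
Level of each of the 23409 paired genes in si-NC polyA RNA (x axis) and MT total RNA (y axis), both as log2(FPKM + 1), with 5 gene lists coloured; the solid line marks equal levels and the dotted lines 1.5-fold. Most replication-dependent histones and many small structured RNAs lie near the left edge, far above the line, and cytosolic ribosomal protein genes lie mostly below it.

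The replication-dependent histone genes lay far above the line as a group. They encode the core and linker histones that package new DNA and are read mainly in S phase. Of the 69 symbols in either table, 59 could be paired, since 9 were repeated identifiers and Hist1h2al was in the polyA tables only. Among these 59 genes, 54 were higher in MT total and 0 lower, where 5.21% of all paired genes were higher. Their median log2 ratio was 4.40. Summed over the 59 genes, the level was 3020 FPKM in MT total and 132 in si-NC. In MT total 52 of them reached 10 FPKM, whereas in si-NC 43 were below 1 FPKM and 3 reached 10. The published 95% intervals of the FPKM values lay apart, with MT above si-NC, for 56 of the 59.

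The pattern ran through every histone class. Genes for the linker histone H1 were higher in 5 of 6 cases, H2A in 13 of 14, H2B in 14 of 17, H3 in 10 of 10 and H4 in 12 of 12. The summed H3 level was 373 FPKM in MT total and 2.02 in si-NC, and the summed H4 level was 961 and 12 FPKM. Those sums differed 185-fold and 80.1-fold, while the H1, H2A and H2B sums differed 14.1-fold, 14.9-fold and 14.1-fold. Hist2h2bb had the largest log2 ratio of all members, 7.37 (bounds from the intervals 7.07 and 7.54), at 185 FPKM in MT total and 0.127 in si-NC. Hist1h4d stood at 156 FPKM in MT total and was listed at 0 in si-NC. Hist1h1d, a linker histone gene, stood at 101 and 1.28 FPKM. The other libraries fell on the same sides, with MB total at 790, 555 and 475 FPKM for these genes and si-hnRNPL at 0.968, 0.407 and 1.60.

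Growing myoblasts held still more histone RNA. MB total exceeded MT total for 58 of the 59 genes, and its sum of 12899 FPKM was 4.27-fold that of MT. The si-hnRNPL polyA sum was 188 FPKM. The second pair thus had a median log2 ratio of 6.56, with 56 genes higher and 0 lower. In 54 genes both total libraries lay at least 1.5-fold above both polyA libraries. The replication genes described further on lay on the other side in the first pair, lower in MT total than in si-NC.

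**Figure D2:**
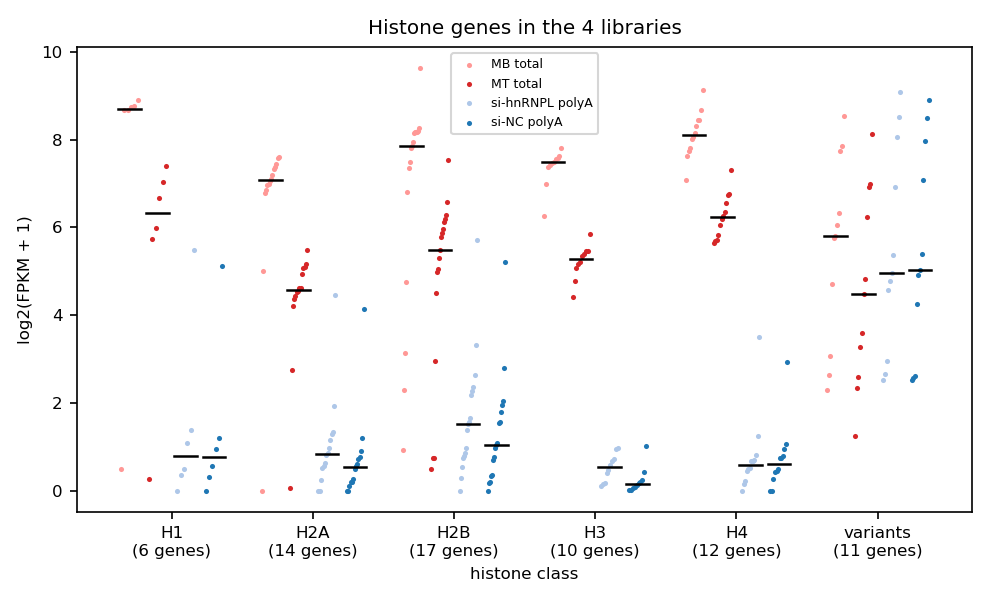
Level of each histone gene as log2(FPKM + 1) in the 4 libraries, by class; points are genes, sorted within a library, and bars are medians. In the 5 replication-dependent classes both total RNA libraries sit above both polyA libraries, and the 11 replication-independent variants overlap in all 4.

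The ends of these genes were read from the mm9 genome. A window of 300 bases centred on the annotated 3′ end was searched, on the gene's strand, for a 6-base stem that opens with GG, closes with its exact complement and encloses a 4-base loop that opens with TT. This stem-loop was found in 52 of the 59 histone genes (88.1%), in 0 of the 11 replication-independent variants and in 10 of 19795 other genes (0.0505%). In 51 of the 52 it began 20 to 24 bases before the annotated end. Over all 19865 genes searched the share was 0.312%. There were 6 forms of it, and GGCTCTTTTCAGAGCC was the form of 31 genes. The poly(A) signal AATAAA or ATTAAA, starting within 40 bases before the end, was found in 4 of the 59 histone genes, in 9 of the 11 variants and in 67.1% of all genes searched. A match is a description of the letters and not of use. The following stretches are shown because they set ends of genes with the largest differences beside those of genes with small or opposite ones. Capitals mark the stem-loop or the letters AATAAA or ATTAAA, 5′ to 3′ on the gene's strand. In H3f3b these letters start 44 bases before the annotated end, outside the 40-base window, so H3f3b is not among the 9 variants counted.

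Hist2h2bb (chr3:96074089-96074114, + strand): caaaaGGCTCTTTTCAGAGCCacttt
Hist1h4d (chr13:23673814-23673839, + strand): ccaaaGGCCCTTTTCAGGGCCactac
Hist1h1c (chr13:23831376-23831401, + strand): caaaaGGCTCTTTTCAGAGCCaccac
Hist1h2bc (chr13:23784321-23784346, + strand): atgtatatatAATAAAtgtcatgtaa
H3f3b (chr11:115883303-115883328, - strand): aggccttacaAATAAActagtaagtt
H3f3a (chr1:182732691-182732716, - strand): attaaaatacATTAAActatacctgc

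The 52 genes with the stem-loop and without a poly(A) signal had a median log2 ratio of 4.65 and a median si-NC level of 0.411 FPKM. The 4 genes with a poly(A) signal and without the stem-loop were Hist1h2bc, Hist1h2be, Hist1h2bp and Hist2h2be, and their median log2 ratio was 2.41. The ranges overlapped, from 0.06 to 7.37 in the first set and from 0.05 to 4.22 in the second. Hist1h2bc, whose annotated end carries AATAAA, had the highest si-NC level of the 59, 36.3 FPKM against 94.0 in MT total. Hist1h1c, an H1 gene with the stem-loop, came next at 33.5 FPKM in si-NC and 167 in MT total. Hist1h2be went against this order, at 76.2 FPKM in MT total and 3.14 in si-NC. Its locus as given runs from 23675539 to 23712993 on chr13, whereas that of Hist1h2bk runs from 22127690 to 22128189. The end searched for Hist1h2be is therefore that of a long gene model. The 3 genes with neither motif in the window, Hist1h2an, Hist1h3g and Hist1h4a, had a median log2 ratio of 4.98. Near-identical histone copies can share reads, so a single copy's value is less certain than a class sum.

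The replication-independent variants, most of which are also made outside S phase and from polyadenylated messages, lay on the other side. Of 11 genes, 0 were higher and 7 lower in MT total, beside 12.8% of all genes lower, and their median log2 ratio was -0.78. H3f3b, which encodes the replacement histone H3.3, stood at 125 FPKM in MT total and 357 in si-NC. H3f3a, the other gene for that protein, stood at 280 and 480 FPKM. Cenpa, the centromeric H3 variant, stood at 8.59 and 31.8 FPKM, and at 65.3 in MB total. With protein-coding genes scaled to 1 sum, 3 of the 11 remained lower and the median was -0.22. In the second pair 3 of the 11 were higher and 4 lower.

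Among the structured RNAs made by RNA polymerase I or III, 5 of 6 paired genes were higher in MT total and 0 lower. Of all paired genes 5.21% were higher and 12.8% lower. Rpph1, the RNA subunit of RNase P, which trims the 5′ end of transfer RNAs, stood at 1444 FPKM in MT total and 2.02 in si-NC, a log2 ratio of 8.90 (bounds 8.22 and 10.22). Rmrp, the RNA of RNase MRP, stood at 1951 and 6.05 FPKM. Both were also high in MB total, at 1441 and 2236 FPKM, and low in si-hnRNPL, at 19.3 and 37.2 FPKM. Rprl3, an RNase P RNA-like gene outside the list, stood at 265 and 1.41 FPKM. The vault RNA Vaultrc5 stood at 32.4 and 0.992 FPKM. The telomerase RNA gene Terc, which RNA polymerase II transcribes, had been placed in this list and stood at 13.2 FPKM in MT total and was listed at 0 in both polyA libraries. The ribosomal precursor entry Rn45s, at 646 and 383 FPKM, was the exception in size: it also stood at 954 FPKM in si-hnRNPL. Bc1, a neuronal RNA, was listed at 0 in all 4 libraries.

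Small nucleolar RNAs guide chemical changes on ribosomal RNA, box C/D RNAs (Snord) guiding ribose methylation and box H/ACA RNAs (Snora) pseudouridylation, while small Cajal body RNAs (Scarna) act on spliceosomal RNAs. Of all paired genes 5.21% were higher and 12.8% lower. Of the 109 paired snoRNA and scaRNA genes, 40 were higher in MT total and 1, Snora28 (60.2 and 196 FPKM), was lower. The si-NC interval of Snora28 reached from 0 to 422 FPKM, so its direction is uncertain. The summed level was 3051 FPKM in MT total and 175 in si-NC for Snord genes. It was 4042 and 669 FPKM for Snora genes, and 673 and 0 FPKM for Scarna genes. The classes differed in how many members were measured at all. In MT total 8 of 65 Snord, 31 of 35 Snora and 4 of 9 Scarna genes were above 0. In si-NC 2, 9 and 0 were above 0. The interval of each gene above 0 in si-NC reached down to 0, so the si-NC sums are uncertain. In both total libraries at once 34 genes lay at least 1.5-fold above both polyA libraries.

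Annotated length moved with detection. None of the 54 snoRNA or scaRNA genes shorter than 80 bp was above 0 in MT total or in si-NC. Between 80 and 100 bp 5 of 14 (35.7%) were above 0 in MT total, and between 100 and 200 bp 35 of 38 (92.1%) were. In si-NC the share between 100 and 200 bp was 28.9%. The Snord genes at 0 in both had a median length of 65 bp, and those above 0 in MT total 112.5 bp. A listed 0 below 80 bp is therefore no evidence that the RNA was absent. Whether the size selection of the libraries or the FPKM estimate set these zeros was not tested. The following genes show the contrast in length; capitals mark the box C letters TGATGA within the first 20 bases, the box D letters CTGA within the last 20, or ACA within the last 10.

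Snord16a (chr9:64023239-64023329, + strand): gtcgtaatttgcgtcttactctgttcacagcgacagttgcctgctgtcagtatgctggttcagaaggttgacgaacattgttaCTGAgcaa
Snord15b (chr7:106628073-106628217, - strand): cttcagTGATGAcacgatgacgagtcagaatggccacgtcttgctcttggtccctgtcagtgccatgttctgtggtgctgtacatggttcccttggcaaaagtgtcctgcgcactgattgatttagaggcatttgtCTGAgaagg
Snora34 (chr15:98350148-98350265, - strand): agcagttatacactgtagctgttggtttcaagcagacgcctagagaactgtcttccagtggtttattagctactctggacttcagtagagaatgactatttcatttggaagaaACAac
Snord47 (chr1:162968223-162968287, + strand): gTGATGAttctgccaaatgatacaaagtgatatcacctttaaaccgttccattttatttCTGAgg

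Snord16a, of 91 bp, was the highest of all at 1548 FPKM in MT total, with an interval of 654 to 2442, and was listed at 0 in both polyA libraries. Snord15b, of 145 bp, stood at 306 FPKM in MT total, 298 in MB total and 34.4 in si-NC. Snora34, of 118 bp, stood at 327 FPKM in MT total and was listed at 0 in si-NC, but it stood at 314 FPKM in si-hnRNPL, so the polyA libraries differed from each other. Snord47, of 65 bp, lies within the host gene Gas5 and was listed at 0 in all 4 libraries, while Gas5 itself stood at 22.7 FPKM in MT total and 13.9 in si-NC. The letters of both boxes were found in 14 of 55 Snord genes searched, 2 of them above 0 in MT total, and ACA was found in 30 of 32 Snora genes. Among longer members, Snord17 stood at 344 FPKM in MT total, Scarna13 at 324 and Scarna6 at 144, all listed at 0 in si-NC. Snora74a, of 198 bp, stood at 422 FPKM in MT total and was listed at 0 in si-NC.

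**Figure D3:**
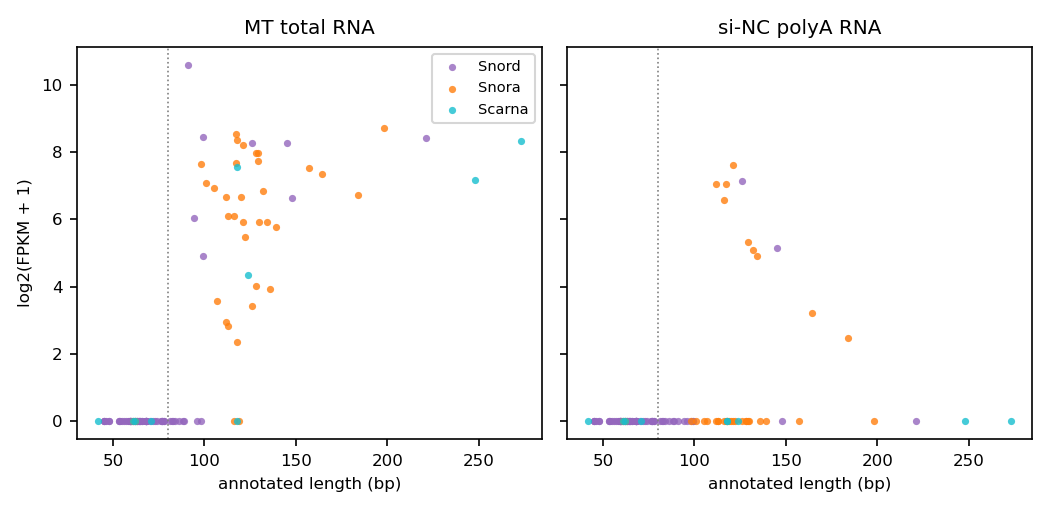
Level as log2(FPKM + 1) of 109 snoRNA and scaRNA genes against annotated length in bp, in MT total RNA (left) and si-NC polyA RNA (right); each point is a gene and the dotted line marks 80 bp. Points left of the line are at 0 in both libraries, and most longer genes are above 0 in MT total only.

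The spliceosomal RNAs of the minor spliceosome followed the same side. Rnu11 stood at 59.0 FPKM in MT total and was listed at 0 in si-NC, and Rnu12 stood at 254 and 13.9 FPKM, with a si-NC interval that reached from 0 to 41.7. The name pattern behind the snRNA list also took in the protein genes U2af1, U2af2, U2af1l4 and U2surp, which encode splicing proteins, so its counts of 2 higher and 1 lower of 8 are no count of snRNAs. Rnu12 had been listed with the snoRNA host genes as well. Of 13 host genes paired, 4 were higher and 3 lower, beside 5.21% and 12.8% of all genes. Among these host genes were Snhg8 (15.9 and 7.55 FPKM), Snhg7 (7.82 and 3.59) and, on the lower side, Snhg6 (24 and 40.2). With the median subtracted, 5 host genes were higher and 0 lower.

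MicroRNA genes were almost unmeasured. Of 1115 paired, 1085 were listed at 0 in both libraries. In MT total 18 of the 1115 were higher and 1 lower, beside 5.21% and 12.8% of all genes. None of 534 entries shorter than 80 bp was above 0 in either library, and 20 of 224 between 100 and 200 bp (8.93%) were above 0 in MT total. Mir6236 stood at 296 FPKM in MT total, 458 in MB total and 0 in both polyA libraries. Mir7082, at 101 FPKM in MT total, had an interval that reached from 0 to 302, and the 1 lower gene, Mir8094 (17.9 and 351 FPKM), had intervals that reached 0 in both. These tables hold no small RNA library, and precursor entries say nothing of mature microRNAs.

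Nuclear long noncoding RNAs were not of 1 kind. Malat1, a highly abundant nuclear RNA whose end is cut by RNase P, stood at 628 FPKM in MT total and 146 in si-NC, a log2 ratio of 2.1 (bounds 2.04 and 2.16). MB total, at 161 FPKM, was close to si-hnRNPL, at 131. Neat1, the RNA scaffold of paraspeckles, lay the other way, at 48.8 FPKM in MT total and 152 in si-NC, and at 14.3 FPKM in MB total and 146 in si-hnRNPL. Of the 14 genes, Malat1 and the imprinted antisense RNA Kcnq1ot1 (0.972 and 0.0998 FPKM) were higher, and Airn, another such RNA (2.97 and 6.24 FPKM) and Neat1 were lower. By GENCODE type, 40 of 122 lincRNA genes with at least 1 FPKM in either library were higher (32.8%) and 21 lower (17.2%). For 10160 protein-coding genes the shares were 8.38% and 26.7%. The median log2 ratio was 0.20 for lincRNA genes, -0.22 for protein-coding genes and 0.35 for 33 pseudogenes.

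Cytosolic ribosomal protein genes, whose short messages are among the most abundant polyadenylated RNAs, were mostly lower. Of 86 genes, 3 were higher and 60 lower in MT total, beside 12.8% of all genes, with a median log2 ratio of -0.81. The median was -0.59 after that of expressed genes was subtracted, and -0.25 with 8 higher and 12 lower after protein-coding genes were scaled to 1 sum. Rps10 stood at 349 FPKM in MT total and 950 in si-NC, Rps16 at 204 and 526, and Rpl22l1 at 129 and 359. Rpl41, the highest of them, stood at 674 and 1271 FPKM. In the second pair 6 were higher and 28 lower. Rps20 was an exception, at 515 FPKM in MT total, 736 in MB total, 86.2 in si-NC and 105 in si-hnRNPL. Its locus was 1128 bp in the total RNA tables and 4072 bp in the polyA tables, so the gene models behind the values differ, and their part in the difference was not tested. Ribosomal protein genes also have many processed pseudogenes that can take reads.

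The medians of other housekeeping groups stayed near that of expressed genes, and that of the zinc finger genes lay above it. Mitochondrial ribosomal protein genes had a median log2 ratio of -0.14 (2 of 77 higher, 10 lower), beside 5.21% and 12.8% of all genes. All 77 reached 1 FPKM in either library, and among protein-coding genes at that level 8.38% were higher and 26.7% lower. After subtraction of the median the list median was 0.09 (6 higher, 7 lower), and after protein-coding scaling 0.41 (19 higher, 2 lower). Those scalings left 2121 and 3654 of all 23409 genes higher, and 1853 and 1101 lower. The nuclear genes for oxidative phosphorylation had a median of -0.22 (3 of 80 higher, 19 lower), which was 0.00 (4 and 6) and 0.27 (15 and 2) under the same scalings. The proteasome had a median of -0.33 (0 of 39 higher, 7 lower), which was -0.10 (1 and 3) and 0.18 (2 and 1). Zinc finger (Zfp) genes had a median of 0.05 (28 of 332 higher, 21 lower), which was 0.28 (71 and 13) and 0.47 (130 and 7). The direction of each of these lists therefore depended on the scaling, except that of the zinc finger genes, whose median was above 0 in all 3. The 3 higher oxidative phosphorylation genes were the muscle isoform genes Cox8b (41.0 and 9.29 FPKM) and Cox6a2 (21.9 and 8.52) and the complex III gene Uqcrq (82.3 and 36.4). Cox8b and Cox6a2 were at 0.119 and 0.0483 FPKM in MB total. The largest differences in the other groups were those of Mrps25 (3.66 and 14.1 FPKM), the proteasome lid gene Psmd7 (40.5 and 93.2), Zfp703 (1.67 and 15.4) and, on the higher side, Zfp488 (20.8 and 4.27). No gene of the mitochondrial genome was paired.

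**Figure D4:**
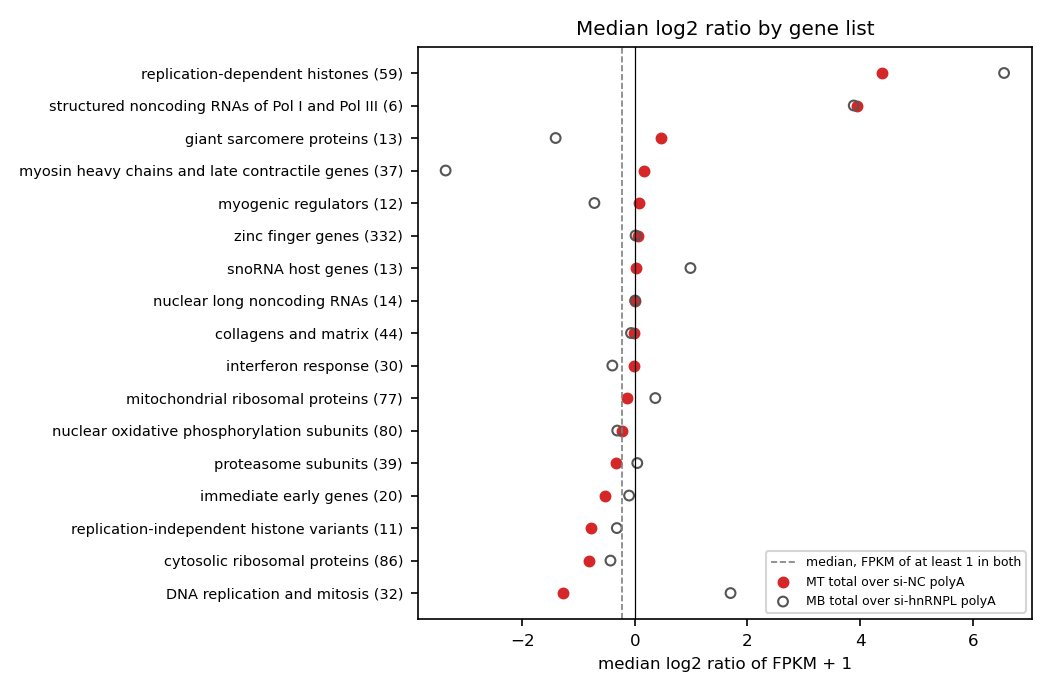
Median log2 ratio of FPKM + 1 for 17 gene lists (number of paired genes in brackets), MT total over si-NC polyA (filled) and MB total over si-hnRNPL polyA (open); the dashed line marks the median of genes with at least 1 FPKM in both libraries of the first pair. The histones and the structured RNAs lie far to the right in both pairs, whereas the muscle and the cell division lists lie on different sides in the 2 pairs.

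Late contractile genes differed among themselves. Of 37 genes, 8 were higher and 5 lower, with a median log2 ratio of 0.17. Of all paired genes 5.21% were higher and 12.8% lower. Among protein-coding genes with at least 1 FPKM in either library, as 34 of the 37 had, 8.38% were higher and 26.7% lower. Mb, which encodes the oxygen store myoglobin, stood at 93.8 FPKM in MT total and 9.39 in si-NC, a log2 ratio of 3.19 (bounds 3.02 and 3.37). Its locus as given spans 35182 bp. Adult and perinatal myosin heavy chain genes lay the same way, with Myh1 at 38.9 and 7.52 FPKM, Myh8 at 5.24 and 1.06, Myh2 at 2.41 and 0.289, Myh4 at 2.63 and 0.786 and the slow gene Myh7 at 4.77 and 2.19. The myosin kinase gene Mylk2 stood at 8.50 and 1.28 FPKM. The skeletal actin gene Acta1, at 479 and 1009 FPKM, the myosin light chain genes Mylpf (528 and 998) and Myl4 (172 and 307), the troponin gene Tnni2 (175 and 300) and the cardiac actin gene Actc1 (223 and 364) were lower. With protein-coding genes scaled to 1 sum, 18 genes of the list were higher and 0 lower, where 3654 and 1101 of all 23409 genes were. In the second pair, whose total RNA came from growing myoblasts, 0 were higher and 31 lower.

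Genes for giant sarcomere and related proteins were higher in 4 of 13 cases and lower in 0, beside 5.21% of all genes higher. Their median was 0.46, and the list also held Dmd and Dysf, which encode membrane-associated proteins. Under the other scalings 8 were higher and 0 lower, with medians of 0.69 and 0.96. Those scalings left 2121 and 3654 of all 23409 genes higher, and 1853 and 1101 lower. Ttn, the gene of the elastic filament protein titin, stood at 38.8 FPKM in MT total and 4.81 in si-NC, an 8.07-fold ratio of FPKM. Neb, the gene of the thin filament protein nebulin, stood at 27.7 and 6.21 FPKM, and Xirp1 and Myom1 at 12.5 against 5.99 and 14.3 against 8.97. Myom2 was close, at 72.4 and 54.5 FPKM. The same genes were at 0.916 FPKM or less in MB total.

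The myogenic regulators were split. Pax7, the marker of muscle stem cells, stood at 7.42 FPKM in MT total and 4.85 in MB total. In the polyA libraries it stood at 1.07 FPKM (si-NC) and 1.03 (si-hnRNPL), both below either total library. Six4, a regulator of the early muscle program, stood at 22 and 9.70 FPKM, and Myod1, the master regulator of the lineage, at 65.9 and 43.6. Myf5 (13.6 and 38.5 FPKM) and Mef2d (13.5 and 30.4) were lower. Myog did not reach 1.5-fold, at a log2 ratio of 0.52.

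Genes of DNA replication and mitosis were lower in 30 of 32 cases and higher in 0, with a median log2 ratio of -1.28 beside 12.8% of all genes lower. Plk1, a mitotic kinase, stood at 3.09 FPKM in MT total and 24.3 in si-NC. Birc5, a subunit of the chromosomal passenger complex, stood at 14.7 and 59.0 FPKM, the cyclin gene Ccna2 at 15 and 51.9, Ccne2 at 2.06 and 11.0, and Pcna, the clamp of DNA polymerase, at 66.0 and 166. Growing myoblasts were highest, with Pcna at 217 and Ccna2 at 108 FPKM, and the second pair had 32 of 32 genes higher. The list therefore lay on opposite sides in the pairs, and MB total was the highest library for each of the 5 genes named. With protein-coding genes scaled to 1 sum, 20 were lower and 1 higher.

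**Figure D5:**
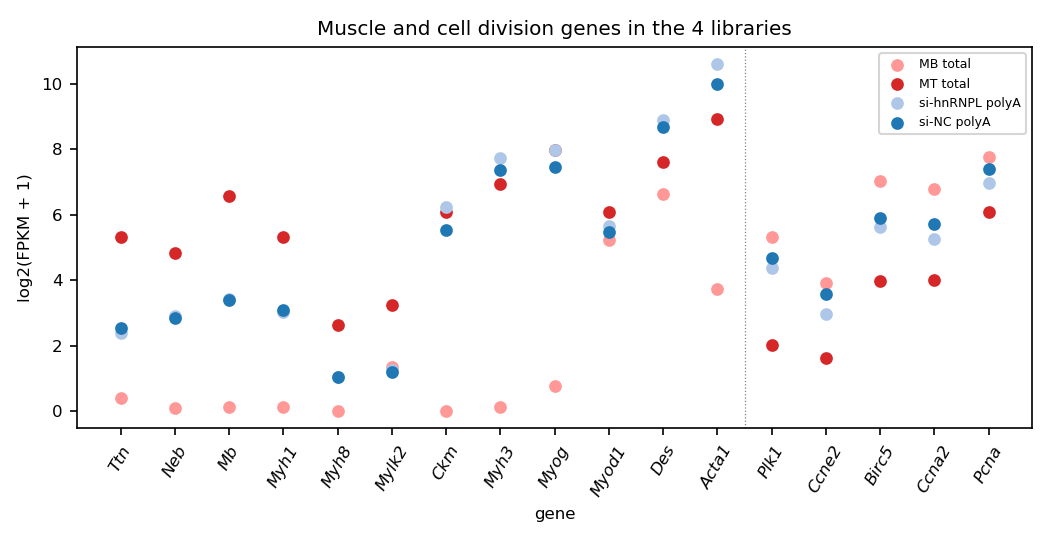
Level as log2(FPKM + 1) of 12 muscle genes (left of the dotted line) and 5 cell division genes (right) in the 4 libraries, 1 point a library. Ttn, Neb, Mb and Myh1 are highest in MT total and lowest in MB total, and the cell division genes are lowest in MT total.

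Collagen genes, which encode the fibres of the extracellular matrix, were mostly lower where they were expressed. Of 44 genes, 18 reached 1 FPKM in either library. Of the 44, 12 were lower and 4 higher, beside 12.8% and 5.21% of all genes. Among protein-coding genes with at least 1 FPKM in either library, 26.7% were lower and 8.38% higher. Col1a1, the main chain of type I collagen, stood at 15.9 FPKM in MT total, 14.7 in MB total, 137 in si-NC and 140 in si-hnRNPL. Col3a1 stood at 329 and 1058 FPKM, Col4a5 at 4.98 and 27.5, and Col18a1 at 8.92 and 43.6. Col8a2 lay the other way in both pairs, at 9.22 FPKM in MT total, 9.49 in MB total, 0.0818 in si-NC and 0.126 in si-hnRNPL. In 9 collagen genes both total libraries lay at least 1.5-fold below both polyA libraries. Immediate early genes are those that cells switch on within minutes of a stimulus. They were lower in 8 of 20 cases and higher in 1, beside 12.8% and 5.21% of all genes, with a median of -0.53. With protein-coding genes scaled to 1 sum, 3 were lower and 2 higher, with a median of -0.09. Klf4 (11.0 and 45.5 FPKM), Klf2 (3.96 and 17.4) and Egr1 (8.15 and 30.3) were lower and Egr2 (3.18 and 0.869) was higher. Interferon-response genes, the usual readout of a reaction to transfected RNA, were low in both libraries. Of 30 genes, 14 reached 1 FPKM in either. In MT total 0 were higher and 5 lower, beside 5.21% and 12.8% of all genes. Bst2 stood at 7.89 and 17.8 FPKM and Isg15 at 2.1 and 4.21. In 4 of the 30 both total libraries lay at least 1.5-fold below both polyA libraries, beside 4.93% of all genes. The second pair had 0 higher and 12 lower, beside 11% and 12.2% of all genes. With the median subtracted, 1 interferon-response gene was higher and 1 lower in the first pair.

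Among single genes with at least 1 FPKM in both libraries, the lowest ratios included those of Prl2c3 (3.15 FPKM in MT total and 93.1 in si-NC), Prl2c2 (1.81 and 61.5), Anp32b (10.2 and 167), Loxl2 (3.77 and 61.8), Gm6793 (22.4 and 252), Gap43 (1.41 and 25), Atn1 (2.64 and 35.4), Pabpc1 (44.2 and 429) and Efnb2 (2.53 and 32.1). Prl2c2 and Prl2c3, which encode prolactin-family growth factors and are near-identical copies, were highest in MB total, at 110 and 180 FPKM. The corepressor gene Atn1 and the collagen crosslinking enzyme gene Loxl2 were low in both total libraries, with MB total at 3.6 and 7.49 FPKM and si-hnRNPL at 38.2 and 52.8. Pabpc1, which encodes the main protein that binds poly(A) tails, stood at 118 FPKM in MB total and 385 in si-hnRNPL. The highest ratios were those of Rpph1, Rmrp, Rprl3, 6 histone genes and Lix1, the 1 ordinary protein-coding gene among them, at 64.5 FPKM in MT total and 1.76 in si-NC, with 6.61 in MB total.

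Other genes split the libraries by type, with both total libraries on 1 side. Ordered by the smallest gap between the types, those far below the polyA libraries also included the fibronectin gene Fn1 (183 FPKM in MT total, 105 in MB total, 1217 in si-NC and 1136 in si-hnRNPL), the RNA-binding protein gene Pcbp1 (30.0, 34.2, 190 and 212) and another such gene, Taf15 (6.59, 9.92, 59.0 and 53.0). Above them, outside the RNA classes already named, were Gadd45gip1 (52.7, 78.6, 7.70 and 8.10), which encodes a mitochondrial ribosome component, and the unnamed gene 5730408K05Rik (17.3, 42.1, 2.38 and 2.52). These genes were picked by their place in that order. Over protein-coding genes with at least 1 FPKM in all 4 libraries, histones apart, 170 lay above and 891 below. The 891 had a median GC content of 52.1% and the 170 of 48.3%, against 50.1% in the 8119 others. Median longest-transcript lengths were 3170, 3618 and 3025 bases, and 1.57%, 2.94% and 1.11% had a single exon.

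Gene structure had little relation to the ratio. Over 9546 protein-coding genes with at least 1 FPKM in both, the Spearman rho across genes was 0.09 with transcript length, -0.06 with GC content, 0.05 with gene span and 0.00 with exon number. The tenth of genes with the longest transcripts, from 6362 bases, had a median log2 ratio of -0.02, and the tenth with the shortest, up to 1280 bases, had -0.32. The tenth with the highest GC content, from 58.2%, had -0.35, and the tenth with the lowest, up to 42.0%, had -0.21.

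In 6050 genes both libraries were listed at 0. Another 2128 were listed at 0 in si-NC only, 88 of them with at least 1 FPKM in MT total, and 318 in MT total only, 6 of them with at least 1 FPKM in si-NC. Peg3os, an RNA antisense to the imprinted gene Peg3, stood at 60.1 FPKM in MT total and 20.3 in MB total and was listed at 0 in both polyA libraries. Since the total RNA library kept strand and the polyA kit as named does not show whether it did, reads of such antisense pairs may be shared out differently. Mia2 was listed at 0 in both total libraries and stood at 22.6 FPKM in si-NC, but its locus was 13331 bp in the total RNA tables and 94421 bp in the polyA tables. Of the 23409 genes, 22137 had the same locus in both, and 88 of the 1272 others (6.92%) were higher and 236 (18.6%) lower. Gm20319 (2.45 FPKM in si-NC), Bricd5 (1.80), Psg16 (1.22) and Ube4bos3 (1.01) were the others of at least 200 bp that were highest in si-NC and listed at 0 in MT total.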

How the data were processed

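RNA of C2C12 cells was sequenced by the study as 4 single libraries. The authors aligned reads to mm9 with TopHat 2.0.13 and deposited FPKM values per gene with 95% intervals from Cufflinks 2.1.1, and the total RNA and polyA tables used different releases of the gene annotation. Here genes were joined on their symbol where it occurred once in each table; unnamed assembled units and 277 repeated symbols were left out, and 634 and 752 symbols were in 1 kind of table only. The log2 ratio used a pseudocount of 1, which understates changes of low genes. No filter was applied unless stated. Bounds combine the published intervals and hold no spread between cultures. Those intervals correspond to about 51481904 fragments over the paired genes in MT total and 20888176 in si-NC, so low genes are less certain in si-NC; read totals were not used here. Of the MT values, 10 had the status FAIL and 125 LOWDATA. Gene type and strand came from GENCODE M1 (84.9% of genes matched 1 entry) and sequences from the NCBIM37 genome, which is mm9. Calls were tested on simulated data. Named genes were the 10 highest and 10 lowest ratios, up to 4 members per list by size of ratio plus the most abundant, 5 per side listed at 0 in 1 library, the muscle markers and Hnrnpl; the genes that split the libraries by type and other list members were added after their values were seen. Some genes that met these rules are not reported here. Genes and lists were chosen with earlier results of these data known. Python 3.11.15, pandas 2.3.3 and numpy 2.4.6 were used.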

Additional observations from a re-analysis of the deposited data

Results flagged for a closer look

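The MT total RNA table also holds assembled units without a gene name, which entered no comparison, and 10343 of them had at least 1 FPKM and a lower interval bound above 0. The genes of DNA replication and mitosis had a median log2 ratio of -1.28 in MT total over si-NC polyA and of 1.70 in MB total over si-hnRNPL polyA, opposite directions whose difference was not tested.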

How the results depend on the processing

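The number of higher genes was 1220 and of lower genes 2996. With a pseudocount of 0.1, 2682 were higher and 3812 lower, and with 0.01, 4538 were higher and 4480 lower, so the excess of lower genes was gone. The median log2 ratio of expressed genes, -0.23, was -0.25 in both cases. Subtracting the median gave 2121 higher and 1853 lower. Scaling protein-coding genes to 1 sum, which multiplied MT values by 1.48, gave 3654 higher and 1101 lower and a median of 0.27. With MB as the total RNA library 2454 were higher and the median was -0.0202. At 2-fold 552 were higher and 1241 lower, and at 4-fold 198 and 135. The median was -0.21 over genes with at least 1 FPKM in either library and -0.39 over genes whose intervals lay apart. Of 43 such values, the other 23 stayed within 1.5 times the count or within the median's interval (for rho, within 0.05), including those restricted to genes with the same locus or with the status OK in both tables, which were chosen after seeing the data. Without a filter the Spearman rho was -0.10 for exon number, -0.05 for gene span and -0.03 for transcript length, against 0.0049, 0.0488 and 0.086 over expressed genes. Of 189 list medians under alternatives, 46 lay beyond their order-statistic interval. The 5 lists with a median past 1.5-fold kept their sign in 43 of 45 settings, and with MB as the total library the replication-independent histone variants turned to 0.0718 and DNA replication and mitosis to 1.16. The histone median ranged from 4.25 to 6.73 and that of cytosolic ribosomal proteins from -1.07 to -0.21. Depth limits low genes, and 1 library a side allows no statement on spread between cultures.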
